A study of Mus musculus with 6 samples.

Results

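The 4 ID genes (Id1, Id2, Id3 and Id4), the inhibitory SMAD genes Smad6 and Smad7, and Smad9, Bambi and Atoh8 were followed in RNA-seq of Ocy454 cells. These 9 genes, of 39179 listed, were chosen by gene symbol as known outputs of BMP-SMAD signalling, and the list was drawn up with earlier results of these data known. The comparisons below therefore describe the 9 genes, and their adjusted p-values come from fits over all genes tested. Ocy454 is a mouse osteocytic cell line, and the study used a subclone grown from a single cell. Cells were grown to confluence at 33 °C and then kept at 37 °C for 14 days. They were treated for 4 h with vehicle (PBS with 25 mM HCl in the labels), with 1 nM PTH 1-34 (an active fragment of parathyroid hormone), or with 0.5 µM YKL-05-093, a small molecule that blocks salt-inducible kinases (SIKs). The supplementary methods instead give DMSO as the solvent of compounds in cell culture and the acidified PBS for animals, so the solvent of the vehicle wells is uncertain. The paper states that the small molecule also inhibits kinases other than SIKs in vitro. It also reports that most of the genes it measured needed the predominant SIKs for their response to the compound, while the rest did not. Which kinases lie behind the changes described below was not tested. Each of the 3 conditions had 2 libraries, and nothing states that duplicates came from separate cultures, so the p-values cover only the spread between these libraries.

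BMP ligands bind pairs of type I and type II serine/threonine kinase receptors, which phosphorylate SMAD proteins that enter the nucleus with SMAD4. Among the genes switched on first are those of the ID proteins, helix-loop-helix proteins without a DNA-binding region that hold E proteins away from DNA, and those of the inhibitory SMADs, which feed back on the receptors. In cells of the osteoblast lineage this pathway drives bone formation, and ID transcripts are commonly used as a readout of it.

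YKL-05-093 lowered Id1, Id2, Id3 and Atoh8, which kept between 21.1% and 43.4% of their mean vehicle level. Smad7 and Smad9 lay at 38.0% and 41.9% and Smad6 at 67.9%, none of them past the test, and Id4 and Bambi lay at 107% and 122%. After PTH none of the 9 genes passed, and Id3, at 47.9% of its vehicle level, came nearest. In the direct comparison Id1 and Atoh8 passed, at 4.12-fold and 3.24-fold higher with PTH than with YKL-05-093. Smad7, Id2, Smad6 and Id3 were also higher with PTH, at a limma adjusted p under 0.05 but less than 2-fold.

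Library totals, inferred from the steps of the RPKM values, were 17505798 to 27983585 reads. The average number of sequenced read pairs per sample in the paper is higher. Values were deposited as RPKM, a read density per kilobase that corrects for gene length and library depth, so that levels of different genes can be compared. The median absolute log2 difference between duplicates was 0.333 in the vehicle pair, 0.108 in the PTH pair and 0.103 in the YKL-05-093 pair. The vehicle pair differed with gene length. The median log2 difference of vehicle replicate 1 minus replicate 2 was -0.317 over the 2690 tested genes under 1000 bases and 0.367 over the 5327 genes of 4000 bases or more, against medians between -0.034 and 0.119 in every length class of the other pairs. Its part in the results below was not tested. Of 8 osteoblast markers, 8 reached 0.5 RPKM in at least 1 library, among them Col1a1 and Ibsp. Of 8 osteocyte markers 4 did (Dmp1, Phex, Pdpn and Fam20c), and Sost, a defining osteocyte gene, had at most 3 reads in any library. The summed level of the osteocyte list was 61.4 to 80.2 RPKM in vehicle, 169 to 180 with PTH and 103 in both YKL-05-093 libraries, most of it Pdpn, and its part in the results was not tested. Of the markers of other types, 0 of 4 for muscle, 0 of 3 for epithelium, 1 of 4 for endothelium, 2 of 4 for cartilage, 2 of 4 for fat and 1 of the 4 found for blood cells reached that level. Their sums were at no more than 0.663 RPKM for muscle, 0.395 for epithelium, 2.17 for endothelium, 3.50 for cartilage, 3.82 for fat and 4.51 for blood cells, with Myod1 and Cdh5 at 0.

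Upstream sequence is shown for genes of the set that were lower in both YKL-05-093 libraries than in both vehicle libraries. For contrast it is shown for Id4, whose libraries overlapped between these conditions. Smad6 and Smad9, like Id4, did not pass in any comparison. Of the 9 genes, 6 had a promoter window in the RefSeq table (GRCm38.p6), namely Id2, Id3, Id4, Smad6, Smad9 and Atoh8. Each window was searched over the 250 bases before the start, on both strands, for GGCGCC and GGAGCC, GC-rich letters known as binding elements of BMP-activated SMADs, and for TGACG, the half-site of the cAMP response element. The 4 windows printed in full and the 30-base stretches of Id2 and Id3 around the GC-rich matches, whose windows overlap annotated first exons, read 5′ to 3′ on the strand of the gene, with matches to these motifs, or their reverse complements, in capitals.
Smad6, chr9:64022060-64022309, minus strand: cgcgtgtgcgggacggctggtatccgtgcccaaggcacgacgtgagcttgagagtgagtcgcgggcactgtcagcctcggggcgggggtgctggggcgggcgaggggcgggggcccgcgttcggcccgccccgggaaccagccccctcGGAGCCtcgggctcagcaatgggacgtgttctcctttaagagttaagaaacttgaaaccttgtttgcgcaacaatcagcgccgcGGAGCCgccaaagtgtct
Smad9, chr3:54755332-54755581, plus strand: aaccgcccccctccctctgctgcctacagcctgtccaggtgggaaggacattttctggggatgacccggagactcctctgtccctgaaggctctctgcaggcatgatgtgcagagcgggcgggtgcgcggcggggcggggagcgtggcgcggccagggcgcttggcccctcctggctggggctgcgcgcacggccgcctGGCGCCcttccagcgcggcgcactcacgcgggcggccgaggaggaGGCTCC
Atoh8, chr6:72235578-72235827, minus strand: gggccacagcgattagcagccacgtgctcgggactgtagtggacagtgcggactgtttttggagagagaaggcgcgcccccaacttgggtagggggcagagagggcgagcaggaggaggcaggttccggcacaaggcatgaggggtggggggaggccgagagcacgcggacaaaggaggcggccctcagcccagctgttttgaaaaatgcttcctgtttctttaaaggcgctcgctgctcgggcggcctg
Id4, chr13:48260866-48261115, plus strand: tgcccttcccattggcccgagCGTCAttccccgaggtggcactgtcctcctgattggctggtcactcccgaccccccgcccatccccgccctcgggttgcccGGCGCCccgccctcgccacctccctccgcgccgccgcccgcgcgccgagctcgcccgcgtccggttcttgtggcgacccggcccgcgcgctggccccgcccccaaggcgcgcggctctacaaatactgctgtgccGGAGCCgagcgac
Id2, chr12:25096306-25096335, minus strand: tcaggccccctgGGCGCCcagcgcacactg
Id2, chr12:25096163-25096192, minus strand: gtatgatggacgGGAGCCcttccaccaatg
Id3, chr4:136143623-136143652, plus strand: cctcgcatccgaGGCTCCgctgtcctcggc

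GGCGCC was found in the windows of Id2, Id4 and Smad9, against 9.59% of all 32851 windows of that length. GGAGCC was found in those of Id2, Id3, Id4, Smad9 and, at 2 places, Smad6, against 26.0% of all. TGACG was found in those of Id3 (its match is not printed) and Id4, against 17.8%. The Atoh8 window held none of these. No matches overlapped, and Id4 held all of the 3 motifs. Id4, Smad6 and Smad9 were all without a called change. The GC content of the windows, 62.8% to 75.6%, was above the median of 52.4% over all windows, and the shares were not matched for it.

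Id3 (ENSMUSG00000007872, chromosome 4, 136143497-136145755, plus strand) was the most abundant of the set. It had 107.9 and 149.6 RPKM in the vehicle libraries, 64.3 and 59.1 with PTH, and 40.5 and 38.8 with YKL-05-093. All libraries of both treatments lay below both vehicle libraries, and those with YKL-05-093 lay below those with PTH. The means were 129 ± 29.5, 61.7 ± 3.67 and 39.6 ± 1.24 RPKM (SD, n = 2 each). Against vehicle, the log2 fold change, taken on log2(RPKM + 0.1) throughout, was -1.68 for YKL-05-093 (standard error 0.20, limma adjusted p = 0.0242), which is called at the study's rule of more than 2-fold and an adjusted p under 0.05. For PTH it was -1.04 (standard error 0.20, limma adjusted p = 0.0507), which misses the threshold narrowly.

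Id2 (ENSMUSG00000020644, chromosome 12, 25093799-25097140, minus strand), which acts in the same way on E proteins, had 34.9 and 38.2 RPKM with vehicle, 28.8 and 28.4 with PTH, and 15.3 and 16.4 with YKL-05-093. Its libraries were tightly grouped and the 3 conditions did not overlap. The change with YKL-05-093 was -1.20 (standard error 0.16, limma adjusted p = 0.0318), to 43.4% of the vehicle mean, and was called. With PTH the level was 78.3% of vehicle (log2 fold change -0.35, limma adjusted p = 0.4).

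Id1 (ENSMUSG00000042745, chromosome 2, 152736251-152737410, plus strand) is the ID gene most often read as a BMP response, yet here it was expressed far below Id3. It had 3.49 and 5.19 RPKM in vehicle, 3.89 and 4.22 with PTH, and 1.04 and 0.787 with YKL-05-093, from 240 reads in the deepest vehicle library down to 27. The PTH libraries lay between the vehicle libraries, and both YKL-05-093 libraries lay below all others. The mean of 4.34 ± 1.2 RPKM (SD, n = 2) in vehicle compared with 0.916 ± 0.181 with YKL-05-093, a log2 fold change of -2.11 (standard error 0.27, limma adjusted p = 0.0304). PTH left it at 93.4% of vehicle, a log2 fold change of -0.07 with a standard error of 0.23.

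Id4 (ENSMUSG00000021379, chromosome 13, 48261228-48266026, plus strand) was the lowest of the family in vehicle. It had 1.31 and 1.73 RPKM there, 1.48 and 1.90 with PTH, and 1.7 and 1.54 with YKL-05-093. The 3 conditions overlapped. Its log2 fold change was 0.15 with PTH and 0.10 with YKL-05-093, with standard errors of 0.25 and 0.24. A difference of 2-fold in either direction lies outside 2 standard errors of both values. Its exons overlap those of A330033J07Rik and Gm49291 on the opposite strand, and whether the counting used strand is not given in the sources used here.

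Summed over the family, ID transcripts came to 147.7 and 194.7 RPKM in vehicle, 98.5 and 93.7 with PTH, and 58.6 and 57.5 with YKL-05-093. Id3 made up 63.1% to 76.8% of the sum in each library and Id2 19.6% to 30.4%, so both sums mainly follow these genes. The share of Id1 was 2.36% and 2.66% in vehicle, 3.95% and 4.50% with PTH and 1.78% and 1.37% with YKL-05-093, with no overlap between conditions.

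**Figure D1:**
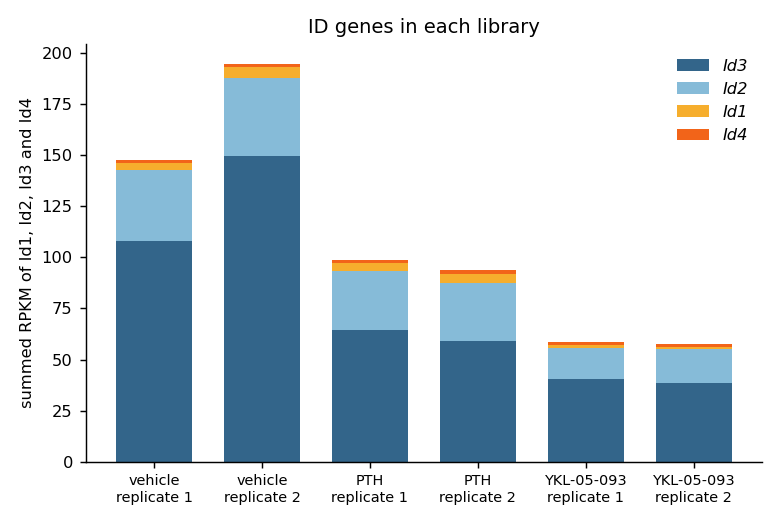
Summed RPKM of Id1, Id2, Id3 and Id4 in each of the 6 libraries, each bar split by gene and starting at 0. Both YKL-05-093 libraries (58.6 and 57.5) stand below both PTH libraries (98.5 and 93.7), which stand below both vehicle libraries, and Id3 takes most of every bar.

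Of the inhibitory SMAD genes, Smad6 (ENSMUSG00000036867, chromosome 9, 63953076-64022059, minus strand), whose product binds and blocks BMP type I receptors and SMADs, had 11.3 and 10.6 RPKM in vehicle. It had 12.7 and 11.3 with PTH and 6.83 and 8.0 with YKL-05-093. The YKL-05-093 libraries were the lowest of the 6, at a log2 fold change of -0.56 against vehicle (standard error 0.16, limma adjusted p = 0.323), and the PTH libraries were both slightly above vehicle (0.13, standard error 0.16).

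Smad7 (ENSMUSG00000025880, chromosome 18, 75367529-75395935, plus strand), which acts on TGF-beta as well as BMP receptors, had 3.93 and 2.69 RPKM in vehicle, 2.20 and 2.63 with PTH, and 1.02 and 1.49 with YKL-05-093. The lower vehicle library was nearly level with the higher PTH library, and the YKL-05-093 libraries lay below all others. The log2 fold change with YKL-05-093 was -1.33 (standard error 0.26, limma adjusted p = 0.0993), larger than that of Id2 but with a wider error. It was called in a fit of all 6 libraries (adjusted p = 0.0342) and without vehicle replicate 2 (adjusted p = 0.0433), and its adjusted p ranged from 1.23e-05 to 0.908 over all alternatives. With PTH it was -0.42 (limma adjusted p = 0.492).

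Smad9 (ENSMUSG00000027796, chromosome 3, 54755582-54801257, plus strand) encodes SMAD8, a receptor-regulated SMAD that is itself a BMP target. Its vehicle libraries, at 3.28 and 1.83 RPKM, differed more than those of any other member. It had 1.39 and 1.27 with PTH and 0.883 and 1.26 with YKL-05-093, all below both vehicle libraries. The log2 fold change was -1.14 with YKL-05-093 (standard error 0.30, limma adjusted p = 0.24) and -0.84 with PTH (standard error 0.27, limma adjusted p = 0.227). In both contrasts the value depended on the vehicle library. Without vehicle replicate 2 it was -1.55 and -1.24 and was called in both (limma adjusted p = 0.0415 and 0.00887, within ranges over all alternatives of 0.000415 to 1 and 0.00757 to 1). Without vehicle replicate 1 it was -0.74 and -0.43.

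Bambi (ENSMUSG00000024232, chromosome 18, 3507923-3516404, plus strand), a decoy receptor without a kinase that dampens BMP and TGF-beta signals, had 3.49 and 4.63 RPKM in vehicle, 4.44 and 3.25 with PTH, and 4.62 and 5.25 with YKL-05-093. Vehicle overlapped with each of the treatments. The log2 fold change was 0.29 with YKL-05-093 (standard error 0.19) and -0.08 with PTH (standard error 0.22), so with YKL-05-093 Bambi and Id4 lay above their vehicle level and the other 7 genes below it. The processed pseudogene Bambi-ps1 was listed at 0.326 to 0.907 RPKM, and how reads matching both were counted is not given in the sources used here.

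Atoh8 (ENSMUSG00000037621, chromosome 6, 72206177-72235577, minus strand), a basic helix-loop-helix factor of the atonal group, had 7.07 and 6.59 RPKM in vehicle, 4.78 and 5.33 with PTH, and 1.59 and 1.39 with YKL-05-093. Its 3 conditions did not overlap. The mean fell from 6.83 ± 0.335 RPKM (SD, n = 2) in vehicle to 1.49 ± 0.141 with YKL-05-093, a log2 fold change of -2.12 (standard error 0.18, limma adjusted p = 0.00881). With PTH it was 5.05 ± 0.386 RPKM, a log2 fold change of -0.43 (standard error 0.16, limma adjusted p = 0.313).

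**Figure D2:**
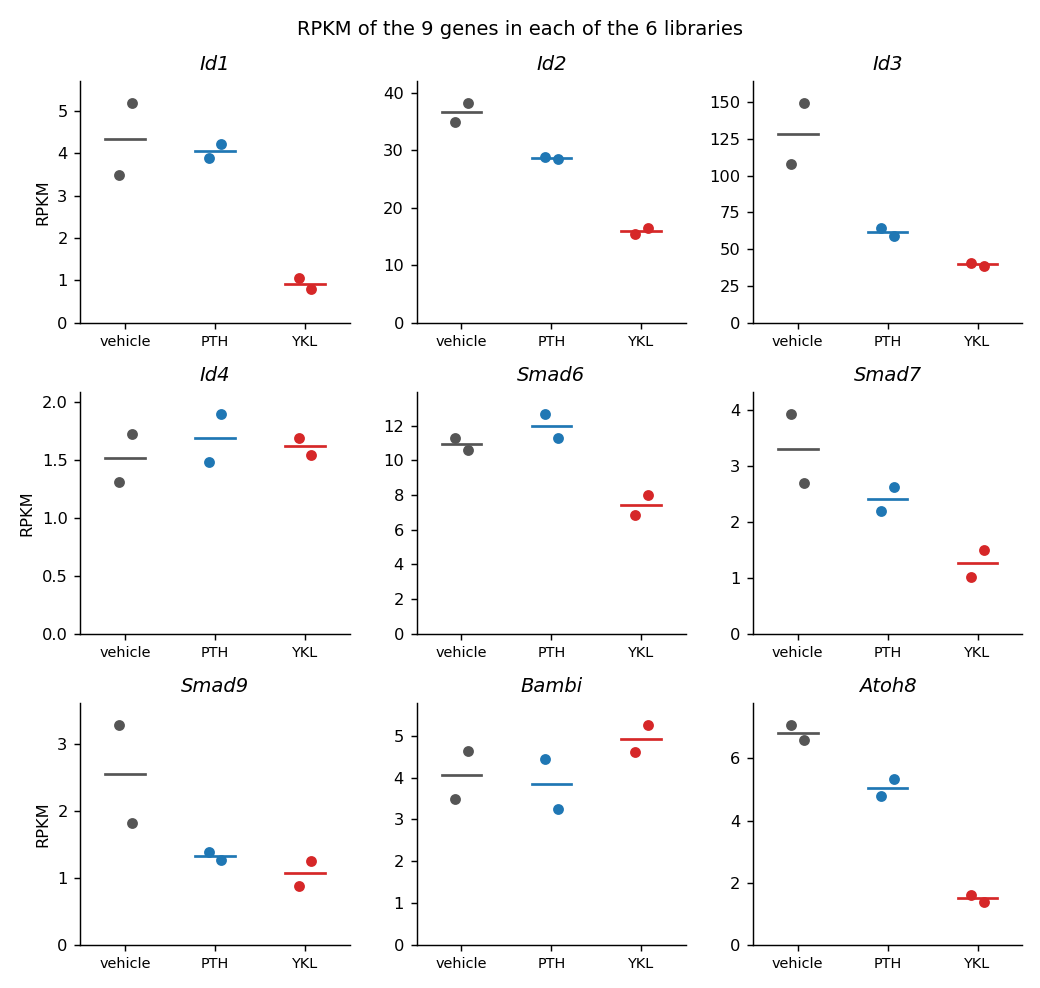
RPKM (linear axis from 0, scaled for each gene) of the 9 genes in vehicle, PTH and YKL-05-093 libraries; points are the 2 libraries and bars their mean. Id1, Id2, Id3, Smad6, Smad7, Smad9 and Atoh8 have both YKL-05-093 points below both vehicle points, and Id4 and Bambi do not.

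By RPKM the order in vehicle was Id3, Id2, Smad6, Atoh8, Id1, Bambi, Smad7, Smad9 and Id4. Id1 could not be separated from Bambi, Bambi from Smad7 or Smad7 from Smad9, since the libraries of these neighbours overlapped. With PTH the first 7 places were the same, and Id4 and Smad9, at 1.69 and 1.33 RPKM, changed places. With YKL-05-093 the order was Id3, Id2, Smad6, Bambi, Id4, Atoh8, Smad7, Smad9 and Id1, and the last 5 overlapped from one neighbour to the next. Id1 thus went from 4.34 RPKM and the fifth place to 0.916 RPKM and the last.

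Compared with vehicle, YKL-05-093 gave 4 of the 9 genes a called decrease and none a called increase, where 0.274% of the 14255 genes tested were called lower. Both libraries lay below both vehicle libraries for 7 of 9, against 22.1% of all genes. The median log2 fold change of the 9 genes was -1.20, against -0.042 over all genes tested. The 4 called genes were Id1, Id2, Id3 and Atoh8. Without YKL-05-093 replicate 1 the call was left for Atoh8 only, without replicate 2 for Id1 and Atoh8, and without vehicle replicate 1 for Id3 only, while without vehicle replicate 2 there were 6, with Smad7 and Smad9 added. Without a filter on low values, or with a spread that follows the mean value, 0 of 9 were called, and the direction of the 4 was lower in every one of these fits.

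PTH against vehicle shares the vehicle libraries with that comparison, so the 2 sets of values are given side by side and not as separate evidence. Under limma 0 of 9 genes were called in either direction, where 0.813% of 14261 genes were called lower and 1.09% higher. With an unadjusted p under 0.05 there were 3 (Id3, Smad9 and Atoh8), all lower, as were 6.89% of all genes. Both PTH libraries were below both vehicle libraries for 5 of 9, against 24.0% of all genes. For Smad6 they were above, but only just, at 11.2872 RPKM in PTH replicate 2 against 11.2686 in vehicle replicate 1. The median log2 fold change was -0.351, against -0.031 for all genes. Id3 was called with voom on the recovered reads (adjusted p = 0.0429), in a fit of all 6 libraries (0.0143) and without vehicle replicate 1 (0.00204), and its adjusted p ranged from 0.000769 to 0.899 over all alternatives. Smad9 was called without vehicle replicate 2.

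**Figure D3:**
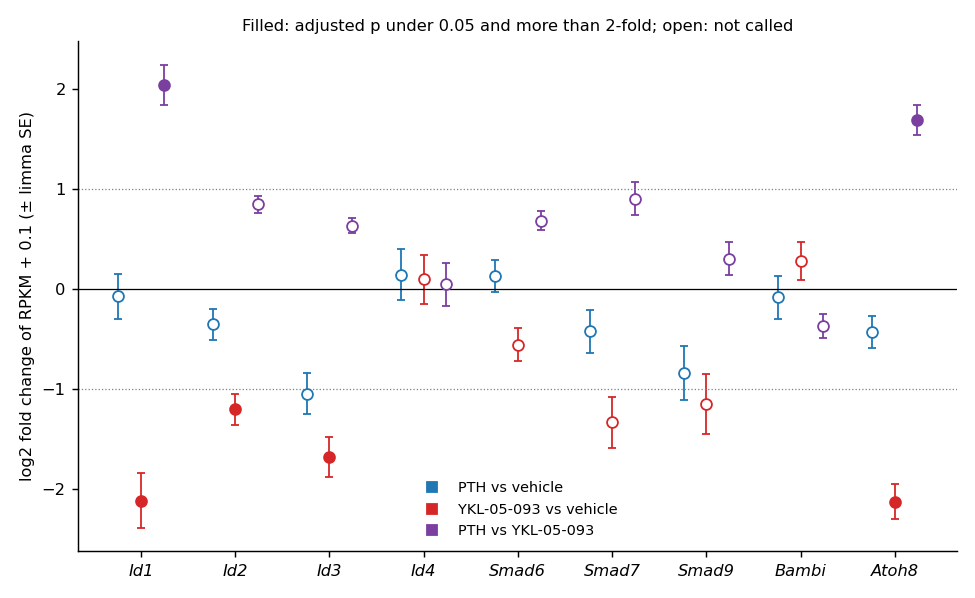
log2 fold changes of the 9 genes on log2(RPKM + 0.1) in the 3 comparisons, with the standard error of limma as bars; filled points are called, and dotted lines mark 2-fold. The 4 filled points of YKL-05-093 against vehicle lie between -2.12 and -1.20, no PTH point is filled, and Id1 and Atoh8 are filled in PTH against YKL-05-093.

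The direct comparison of PTH with YKL-05-093 uses no vehicle library and so has the narrower spread of these pairs. Id1 (log2 fold change 2.04, standard error 0.20, limma adjusted p = 4.01e-06) and Atoh8 (1.69, standard error 0.15, limma adjusted p = 9.49e-07) were higher with PTH, 2 of 9 genes against 0.737% of 14255 genes called higher. Smad7 (0.91), Id2 (0.85), Smad6 (0.69) and Id3 (0.64) also had adjusted p-values under 0.05, from 4.05e-06 to 0.00139, at less than 2-fold, which brings the count to 6 of 9, against 4.85% of all genes. That count was 3 in a fit of all 6 libraries, 4 without a filter on low values, 4 without YKL-05-093 replicate 1 and 0 without either PTH library. Both PTH libraries lay above both YKL-05-093 libraries for 7 of 9, against 26.3% of all genes. Bambi lay the other way at -0.37 (standard error 0.12, limma adjusted p = 0.0743), Smad9 was at 0.31 (0.308) and Id4 at 0.05 (standard error 0.22). The median was 0.687, against 0.014 over all genes. Without either PTH library 0 of 9 genes, and 0 of all genes, were called, and without YKL-05-093 replicate 2 there were 3, with Smad7 added.

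How the members varied together was described by the Euclidean distance between their profiles of log2(RPKM + 0.1) over the 6 libraries, each centred on its own vehicle mean. The nearest pair was Id2 and Smad7 (0.617), followed by Id1 and Atoh8 (0.701), Smad7 and Smad9 (0.723) and Id4 and Bambi (0.726). The farthest was Bambi and Atoh8 (3.49). Among 11876 other genes averaging 50 reads or more, Id1 and Atoh8 had the same 3 nearest genes. For Id1 these were Etv5 (0.763), Hmga2 (0.895) and Spry4 (1.1), and for Atoh8 Spry4 (0.781), Etv5 (0.888) and Hmga2 (0.897). Etv5 had means of 2.40 RPKM in vehicle, 2.43 with PTH and 0.668 with YKL-05-093. The genes nearest to Id2 were Arc (0.403), Socs1 (0.412) and the BMP ligand Bmp4 (0.418). Those nearest to Id3 were Fjx1 (0.254), with 3.14, 1.46 and 0.934 RPKM in vehicle, PTH and YKL-05-093, then Rspo3 (0.594) and Gm5763 (0.659). All points share the same libraries, and the distances carry no test.

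**Figure D4:**
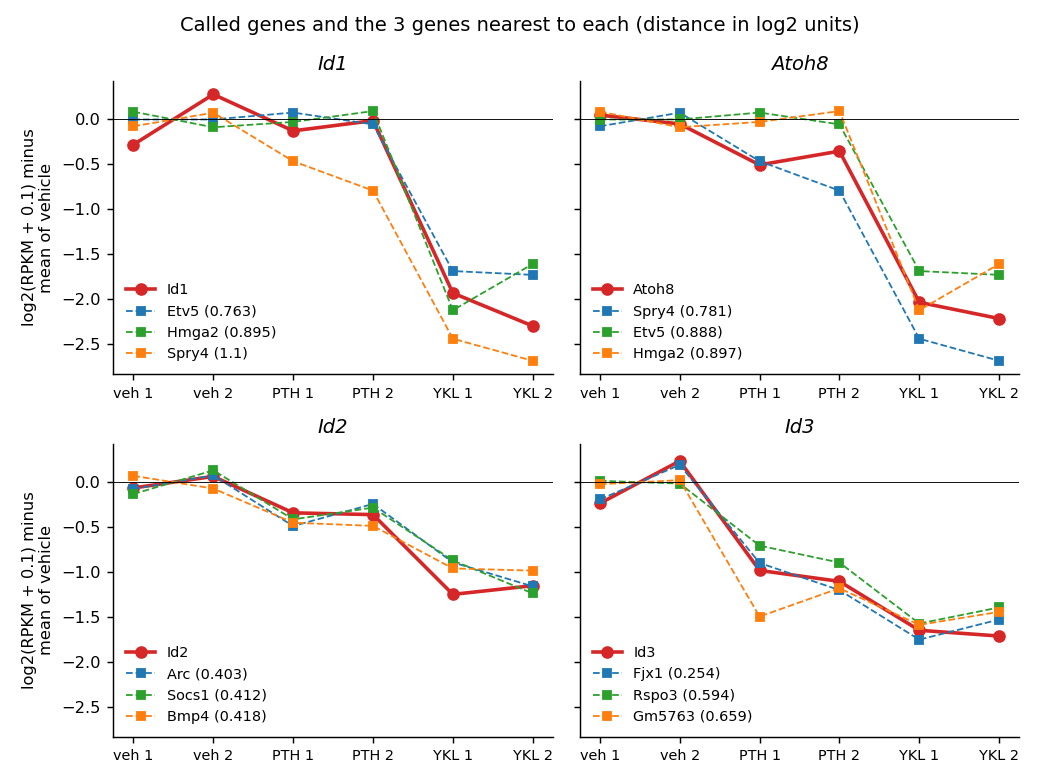
Profiles of Id1, Atoh8, Id2 and Id3 (red) and of the 3 genes nearest to each over the 6 libraries, as log2(RPKM + 0.1) minus the vehicle mean, with the distance in brackets. Id1 and Atoh8 drop mainly in the YKL-05-093 libraries, while Id3 and its neighbours are already lower in the PTH libraries.

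Other genes of the pathway were read from lists by role. No gene of the SMAD transducers (Smad1 to Smad5, 5 tested), of the SMAD cofactors and ubiquitin ligases (17 tested) or of the BMP receptors (9 tested) was called by limma, or by voom, in any comparison. With an unadjusted p under 0.05 there were, in the same order, 1, 4 and 1 of them for PTH against vehicle, 1, 3 and 1 for YKL-05-093 against vehicle, and 2, 8 and 4 between treatments. That rule took in 13.3%, 8.67% and 22.3% of all genes in these comparisons. Some of these genes had a limma adjusted p under 0.05 between treatments at less than 2-fold. Pmepa1, of the cofactor list, also had one against vehicle, where it was higher with PTH (log2 fold change 0.91, limma adjusted p = 0.0363). Smad3 (log2 fold change -0.69, limma adjusted p = 5.11e-06) and Bmpr1a (-0.25, limma adjusted p = 0.0228) were lower with PTH than with YKL-05-093. Skil (0.92, limma adjusted p = 2.42e-05) and Tgfbr3 (0.59, limma adjusted p = 1.55e-05) were higher. Smad5, a transducer of BMP signals, had 29.2 ± 8.34 RPKM in vehicle, 23.6 ± 1.13 with PTH and 25.2 ± 0.173 with YKL-05-093 (SD, n = 2 each), and the common partner Smad4 had 25.1 ± 2.77, 26.5 ± 0.6 and 24.6 ± 0.432. The type I receptor gene Bmpr1a was at 28.0 ± 7.94, 22.2 ± 0.873 and 26.4 ± 0.041, and the co-receptor gene Tgfbr3 at 16.6 ± 5.55, 19.4 ± 0.561 and 12.8 ± 0.57. The phosphatase gene Ppm1a and the ubiquitin ligase gene Smurf2 had the highest mean over all 6 libraries in the cofactor list, and were at 35.3 ± 1.85 and 27.5 ± 6.04 RPKM in vehicle. Their log2 fold changes lay between 0.06 and 0.63 against vehicle.

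Of 4 BMP ligand genes tested, Bmp2 was called lower after PTH, where 0.813% of all genes were called lower. It had 7.78 and 6.88 RPKM in vehicle, 3.39 and 3.11 with PTH and 3.73 and 3.69 with YKL-05-093. Both treatments lay below vehicle without overlap, at -1.15 for PTH (standard error 0.16, limma adjusted p = 0.0165) and -0.96 for YKL-05-093 (limma adjusted p = 0.0661). Bmp4, the most abundant ligand, had 12.6 and 11.5 RPKM in vehicle, 8.78 and 8.57 with PTH, and 6.14 and 6.04 with YKL-05-093. Its log2 fold change was -0.47 with PTH and -0.97 with YKL-05-093 (limma adjusted p = 0.249 and 0.0583). The abundant antagonist genes Fstl1 and Twsg1 were at 182 ± 25.4 and 47.1 ± 9.75 RPKM in vehicle and changed by less than 0.36 on the log2 scale in each comparison.

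Among 14 tested genes from a list of 20 other known BMP-SMAD targets, 3 were called lower after PTH and 1 after YKL-05-093, and none higher. Of all genes tested, 0.813% were called lower after PTH and 0.274% after YKL-05-093. The PTH calls were Dlx3 (-1.94, standard error 0.22, limma adjusted p = 0.00714), Sp7 (-1.97, standard error 0.16, limma adjusted p = 0.00189) and Tnfrsf11b (-1.06, standard error 0.17, limma adjusted p = 0.0263). Dlx3 is a homeobox gene, Sp7 encodes osterix, a factor required for osteoblasts, and Tnfrsf11b encodes osteoprotegerin. Sp7 had 46.0 and 45.5 RPKM in vehicle, 12.2 and 11.1 with PTH and 22.4 and 29.6 with YKL-05-093. The YKL-05-093 call was Snai2 (-1.19, standard error 0.16, limma adjusted p = 0.034), at 27.2 and 23.4 RPKM in vehicle, 15.7 and 17.8 with PTH and 11.4 and 10.6 with YKL-05-093. The median of the 14 was -0.737 for PTH and -0.635 for YKL-05-093, with 9 and 12 of 14 below 0. The medians over all genes tested were -0.031 and -0.042. The most abundant, Ibsp and Alpl, were above their vehicle level after both treatments without passing the test. Between treatments the calls of this list went both ways. Dlx3 (-1.38, limma adjusted p = 0.000133) and Sp7 (-1.14, limma adjusted p = 1.45e-06) were lower with PTH than with YKL-05-093, where 0.470% of all genes were called lower, and Hes1, a Notch target and helix-loop-helix repressor, was higher (1.52, limma adjusted p = 6.61e-07). Hes1 had 4.03 and 6.26 RPKM in vehicle, 8.84 and 10.1 with PTH and 2.98 and 3.50 with YKL-05-093.

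Among 10 targets of TGF-beta and SMAD3, Snai1, a zinc finger repressor, was called higher after PTH (1.40, standard error 0.23, limma adjusted p = 0.0264). Of all genes, 1.09% were called higher after PTH. None of the 10 was called after YKL-05-093, where 5 had an unadjusted p under 0.05 and voom called 0. The most abundant, Cdkn2b and Bhlhe40, were at 34.8 ± 8.12 and 25.3 ± 2.65 RPKM in vehicle and changed by less than 0.19 on the log2 scale against it. Of 8 E protein genes and other partners of ID proteins, Hes1 alone was called, between the treatments. Tcf3, which encodes the E proteins E12 and E47, had 35 ± 1.38 RPKM in vehicle, 31.2 ± 0.31 with PTH and 32.9 ± 1.14 with YKL-05-093, and Twist1 had 39.6 ± 1.77, 56.7 ± 0.387 and 41.2 ± 2.19. Among 5 other helix-loop-helix genes tested, Scx, the tendon factor scleraxis, was called lower with PTH than with YKL-05-093 (-1.09, limma adjusted p = 8.35e-06). Scx was at 8.28 and 6.98 against 16.7 and 16 RPKM, and 0.470% of all genes were called lower in that comparison.

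**Figure D5:**
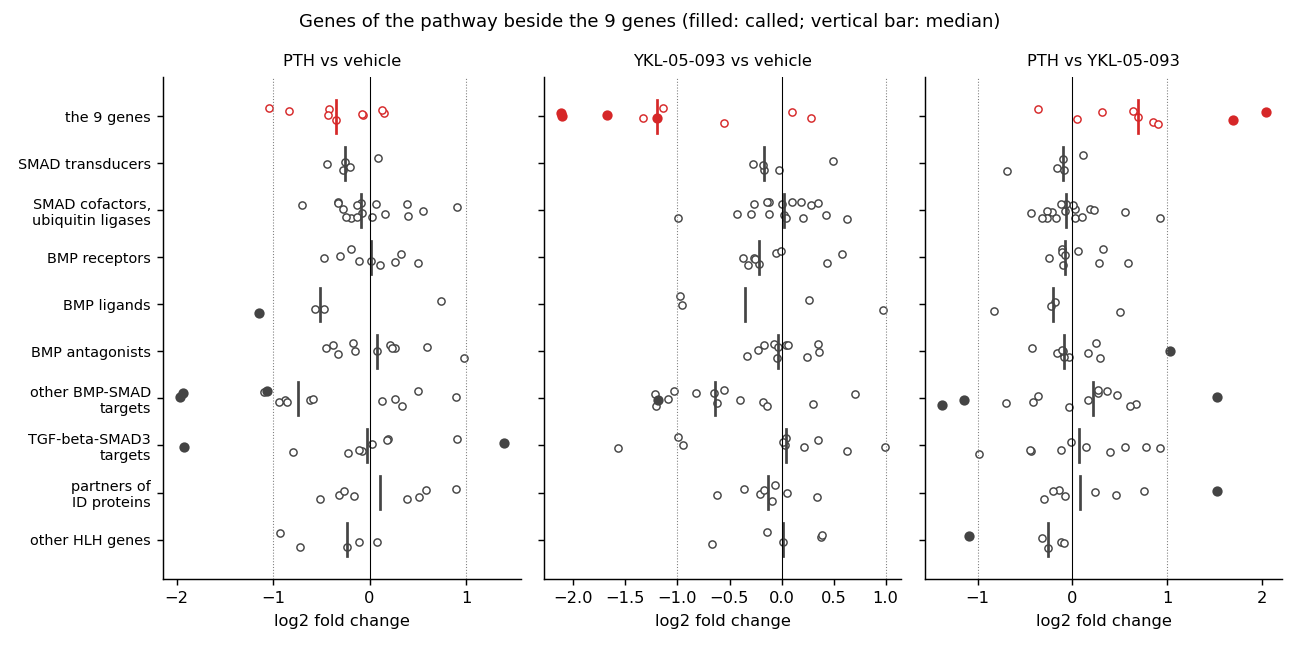
log2 fold changes of the 9 genes (red) and of each tested gene of 9 pathway lists (grey) in the 3 comparisons, with called genes filled, the median of each row as a vertical bar and dotted lines at 2-fold. The median of the 9 genes is -1.20 in YKL-05-093 against vehicle and 0.687 in PTH against YKL-05-093, and the lists of SMAD transducers, cofactors and receptors hold no filled point.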

How the data were processed

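The study removed ribosomal RNA and prepared strand-preserving libraries. According to the methods and labels, the authors aligned reads to mm10/GRCm38 with STAR, used HTSeq with Ensembl models for counting, and deposited RPKM on a linear scale without scaling between libraries. Whole reads were recovered from the RPKM steps and summed to 99.7% of the library totals inferred from the same steps. They set the depth behind each value, the model of the spread and the limit for the search of similar genes, and were tested themselves only with voom. The authors tested counts with edgeR. Since RPKM are not counts, limma 3.58.1 (R 4.3.3) was run on log2(RPKM + 0.1) over the 14264 genes that reached 0.5 RPKM in 2 or more of the 6 libraries, a filter that all 9 genes passed. Each comparison was fitted on its 4 libraries, with the prior variance following the mean log2 number of reads and Benjamini-Hochberg adjustment over all genes tested (14255 to 14261). Calls needed an adjusted p under 0.05 and more than 2-fold. Two-sided exact permutation cannot go below p = 0.333 with 2 against 2, so the p-values rest on the spread limma shares across genes. The script was tested on simulated data with the same spread in every library. That setting lacks the wider spread of the vehicle pair and its difference with gene length, and cannot speak to them. The pseudocount understates changes of low genes. Gene positions are from GENCODE M21 (GRCm38).

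The 9 genes, the lists and the settings were chosen with earlier results of these data known. Named from a list were the genes called in any comparison, and otherwise at most the 2 most abundant. Smad3 and Skil were also named, for their difference between the treatments, and Pmepa1 for its difference from vehicle. For each called member the 3 nearest genes by profile were named. Lists were described by counts and medians, without a set test. Results of some listed genes are not reported here.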

Additional observations from a re-analysis of the deposited data

How the results depend on the processing

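Over 378 alternative fits of single genes and comparisons, 347 kept the call or its absence, 20 lost a call, 11 gained one and 0 reversed a called direction. For PTH against vehicle the 0 called genes became 1 (Id3) in a fit of all 6 libraries and with voom on recovered reads, and 0 to 1 on leaving out single libraries. For YKL-05-093 against vehicle the 4 called genes became 0 without a filter on low values and 0 with a spread that follows the mean value, 5 in a fit of all 6 libraries (Smad7 added), and 1 to 6 on leaving out single libraries. For PTH against YKL-05-093 the 2 called genes became 6 with no fold limit and 6 with a limit of 1.5-fold, and 0 to 3 on leaving out single libraries. In such fits the lone library is taken to vary like the other group, and the causes were not tested.

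Replicate numbers were taken as names only. Deviations of same-numbered libraries from their condition means correlated at -0.034, -0.054 and -0.049 over 14264 genes. With the replicate number as a block, PTH against vehicle gave 1 called member, and over all genes it gave 278 higher and 162 lower, against 156 and 116. YKL-05-093 against vehicle gave 6 called members under the block, with Smad7 and Smad9 added, and 123 and 92 genes against 56 and 39, and the direct comparison 125 and 71 against 105 and 67.

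Over all genes, called higher and lower, PTH against vehicle gave 0 and 0 without the filter, 107 and 53 with a spread that follows the mean value, 140 and 72 with a pseudocount of 1 RPKM, and from 11 and 3 to 367 and 302 without 1 library. YKL-05-093 against vehicle gave 0 and 0, and 5 and 1, in the same settings, 34 and 21 with a pseudocount of 1 RPKM, 35 and 22 with a filter of 0.1 RPKM, 95 and 78 in 1 fit of all libraries, and from 7 and 4 to 149 and 172 without 1 library. The direct comparison gave 72 and 26 with a pseudocount of 1 RPKM, 62 and 40 in 1 fit, 0 and 0 without either PTH library, and 78 and 33 without YKL-05-093 replicate 2. Scaling by the median ratio moved libraries by no more than 0.046 on the log2 scale and changed no call of a member. At 27 to 240 reads, Id1 is the gene most limited by depth among those called.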
